A study of Mus musculus with 8 samples.

Results

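The collagen genes are the protein-coding genes of the read-count table whose GENCODE M21 symbol starts with Col, a number, the letter a and a further number. Of the 38293 gene rows, 45 matched. One of them, Col4a3bp, is not a collagen gene. It encodes a ceramide transfer protein that was named for binding a type IV collagen chain, and it was kept apart from the other 44. Of these 44 collagen genes, 30 had enough counts to be tested and 14 did not. The libraries were made from poly(A) RNA of the left ventricle of untreated C57BL/6 males aged 8 weeks. The groups are 4 wild-type (WT) hearts and 4 hearts of knockout (KO) mice for Nbdy (mORF4/NBDY), a microprotein gene linked to mRNA decapping. How the KO allele was made is not given in the labels. There is 1 library per heart, numbered WT replicates 1 to 4 and KO replicates 5 to 8, and total counts ran from 11101901 to 14699949 per library.

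Collagens are the main structural proteins of the extracellular matrix. A collagen chain carries long runs of the repeat Gly-X-Y, in which every glycine fits into the centre of a helix wound from several chains. In the heart, fibroblasts secrete the fibrillar types I and III, which form the fibres of the interstitium and give the wall its tensile strength and stiffness. Type IV collagen forms the network of the basement membranes that surround cardiomyocytes and capillaries. Type VI forms beaded filaments that link the basement membrane to the fibres. FACIT collagens attach to the surface of fibrils, and multiplexins such as types XV and XVIII sit in or near basement membranes.

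The repeat unit of the protein is visible in the exon lengths of the genes, a feature that the choice of members by symbol did not use. A Gly-X-Y unit takes 9 bases, and in the 30 tested collagen genes 851 of 1397 inner coding exons (60.9%) had a length that is a multiple of 9, against 13.4% of inner coding exons in the other 12420 tested genes with a coding transcript. Exons of exactly 54 bases numbered 297 in the collagen genes and 476 in all the others together. The share was 83.4% in fibrillar genes and 47.2% in type IV genes, whose repeat is known to be broken by interruptions. Below stands 1 such exon each of Col1a2 and Col3a1, from the GENCODE M21 transcripts on GRCm38, shown because these fibrillar genes had among the lowest KO over WT fold changes of the abundant members, none of which passed. Capitals mark the codons that start with GG, which encode glycine. The first is coding exon 8 of 52 of Col1a2 (chr6:4515481-4515534, plus strand) and the second is coding exon 6 of 51 of Col3a1 (chr1:45325360-45325413, plus strand), and each holds 6 such codons in 54 bases.
Col1a2 exon: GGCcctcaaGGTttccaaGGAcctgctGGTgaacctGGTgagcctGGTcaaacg
Col3a1 exon: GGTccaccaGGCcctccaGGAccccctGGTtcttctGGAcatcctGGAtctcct

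**Figure D1:**
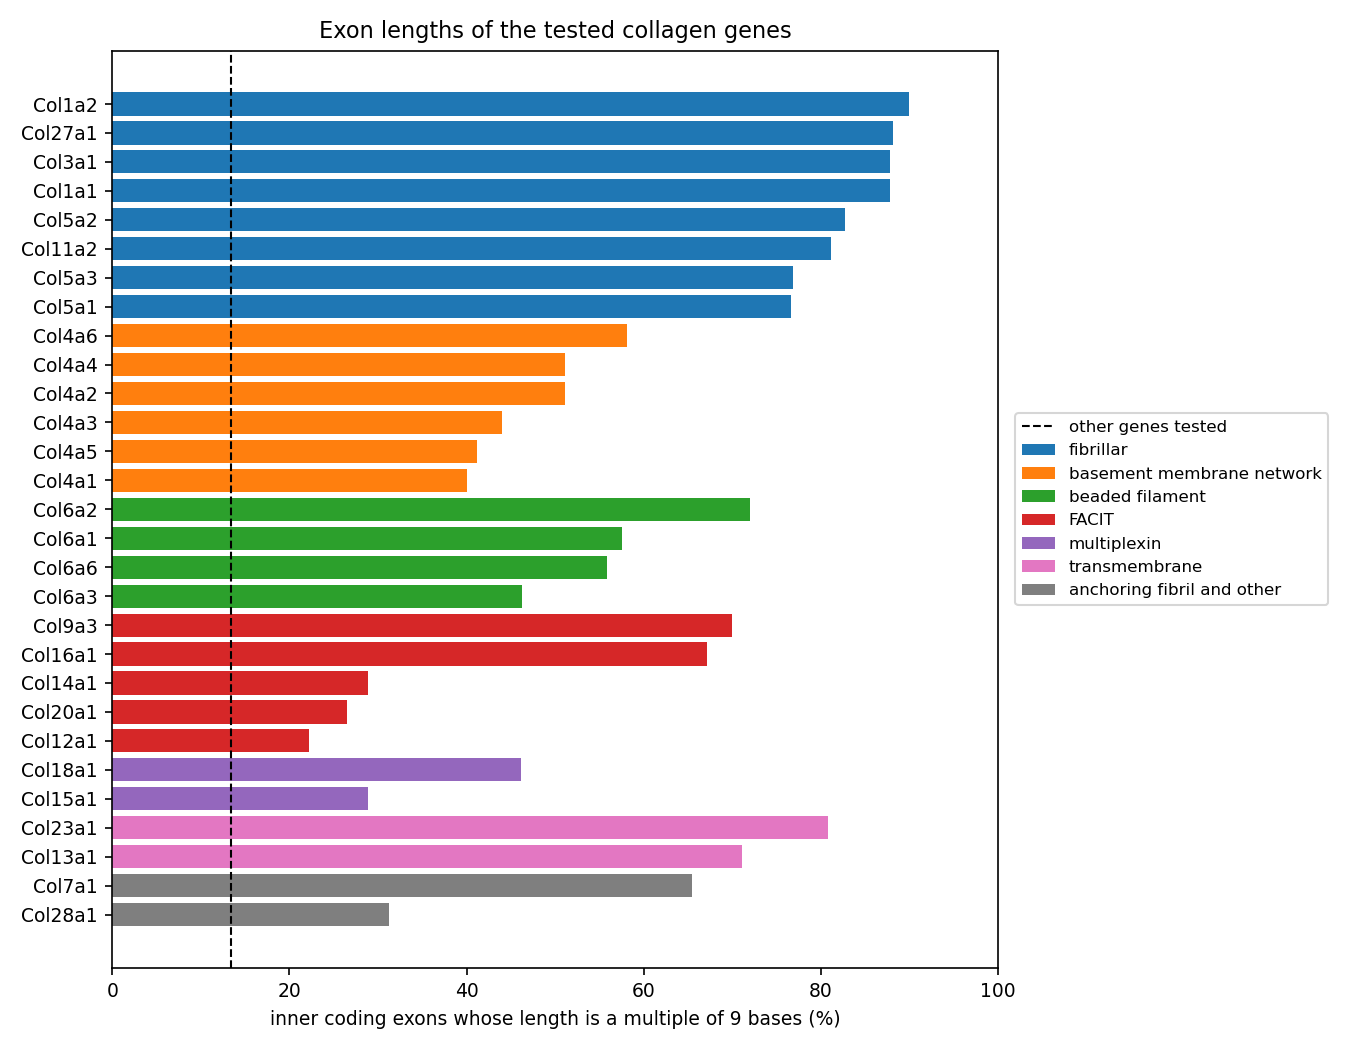
Share of inner coding exons (percent, horizontal axis) whose length is a multiple of 9 bases in the tested collagen genes, coloured by class. The dashed line marks the 13.4% of the other tested genes; every bar lies above it, and the fibrillar genes lie highest as a class (83.4%). Col8a1, with 2 coding exons and no inner one, is not drawn.

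Several collagen genes lie next to each other in pairs. Col4a1 (chromosome 8, 11198423 to 11312826, minus strand, GRCm38) and Col4a2 (11312805 to 11449287, plus strand) start head to head, and their first exons overlap by 22 bases. These 22 bases stand in capitals in the stretch chr8:11312801-11312830 (plus strand, RefSeq, GRCm38.p6), shown because this pair gave the highest collagen levels in these hearts.
Col4a1 and Col4a2 start: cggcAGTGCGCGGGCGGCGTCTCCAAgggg
Col4a6 and Col4a5 on chromosome X also start head to head, with 1342 bases between their RefSeq starts. So do Col4a4 (chromosome 1, 82448423 to 82586849, minus strand) and Col4a3 (82586921 to 82722059, plus strand) by their GENCODE M21 positions. The strand setting of the authors' counting is not given, so reads from the overlap of Col4a1 and Col4a2 may have been counted for either gene. RefSeq promoter windows around the start were given for 24 of the 30 tested genes, and Col1a1, Col5a2, Col4a3, Col12a1, Col14a1 and Col9a3 have no entry. The GC box GGGCGG stood on either strand in at least 1 window of 16 of these 24 genes, and in 38.2% of 27025 genes of the table (35.7% of its 32851 windows). The CCAAT box stood in 8 of the 24 and in 41.1% of all genes (37.4% of windows), and TATAAA in 3 of the 24 and in 15.7% of all genes (13.6% of windows). The 250 bases before the RefSeq starts of Col1a2 (chr6:4505368-4505617) and Col3a1 (chr1:45311288-45311537), both on the plus strand of GRCm38.p6, are shown because the abundant fibrillar genes differ in these letters. GENCODE M21 lets Col1a2 begin further upstream, at 4504814, so the Col1a2 window lies inside the gene by that annotation. Capitals mark the matches to these motifs on either strand, which do not overlap each other.
Col1a2 promoter: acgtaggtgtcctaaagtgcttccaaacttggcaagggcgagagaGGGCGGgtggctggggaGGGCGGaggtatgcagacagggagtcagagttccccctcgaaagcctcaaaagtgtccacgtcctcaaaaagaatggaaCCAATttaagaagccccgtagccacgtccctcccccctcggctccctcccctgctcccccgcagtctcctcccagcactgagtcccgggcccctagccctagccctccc
Col3a1 promoter: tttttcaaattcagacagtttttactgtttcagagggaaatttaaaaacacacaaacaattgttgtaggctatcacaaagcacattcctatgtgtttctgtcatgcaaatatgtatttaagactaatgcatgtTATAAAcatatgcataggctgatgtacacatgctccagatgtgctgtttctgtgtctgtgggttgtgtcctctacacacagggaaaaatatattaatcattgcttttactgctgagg
These letters describe the windows only and say nothing about which factors bind there.

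Basement membrane collagen dominated the family in these hearts. All collagen genes together took 0.194% to 0.264% of the counts of a library. Mitochondrial genes took 29.2% of the counts in WT replicate 1, 19.4% to 19.9% in WT replicates 2 to 4 and 23.0% to 26.7% in KO libraries. CPM, read counts scaled to the library size after TMM scaling, summed over the family to 2303 ± 187 in WT hearts and 2249 ± 293 in KO hearts (SD, n = 4). Type IV genes held 47.3% to 52.3% of the family's CPM in WT libraries and 51.2% to 53.9% in KO libraries, and fibrillar genes 28.9% to 32.2% in WT and 25.3% to 29.5% in KO. Both ranges overlap between the groups. Multiplexins held 5.71% to 7.63% and beaded filament genes 9.77% to 11.6% over all 8 libraries.

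Levels of different genes were compared per kilobase (kb) of all annotated exons of the gene. On this scale Col4a1 came first with a mean of 86.4 CPM per kb (73.3 to 101 over the 8 libraries), followed by Col4a2 with 69.4 (59.5 to 82.4). These ranges overlapped, but within each library Col4a1 was above Col4a2 (ratio 1.14 to 1.44). Then came Col6a1 at 24.3 CPM per kb, Col1a1 at 21.8, Col15a1 at 21.2 and Col3a1 at 20.6, whose ranges, from 15.3 to 27.4 in all, overlapped, so their order is not set. Col6a2 followed at 12.2 (10.4 to 15.2), Col1a2 at 10.8 (8.04 to 13.0) and Col5a3 at 9.06 (5.54 to 11.2), again with overlapping ranges. The lowest of the 30 was Col12a1 at 0.0771. Per kb of the longest coding transcript, a shorter measure, Col3a1 stood at 36.4 CPM per kb and Col1a2 at 25.1, so the places of these fibrillar genes depend on the length used, while Col4a1 (97.5) and Col4a2 (71.2) stayed first.

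**Figure D2:**
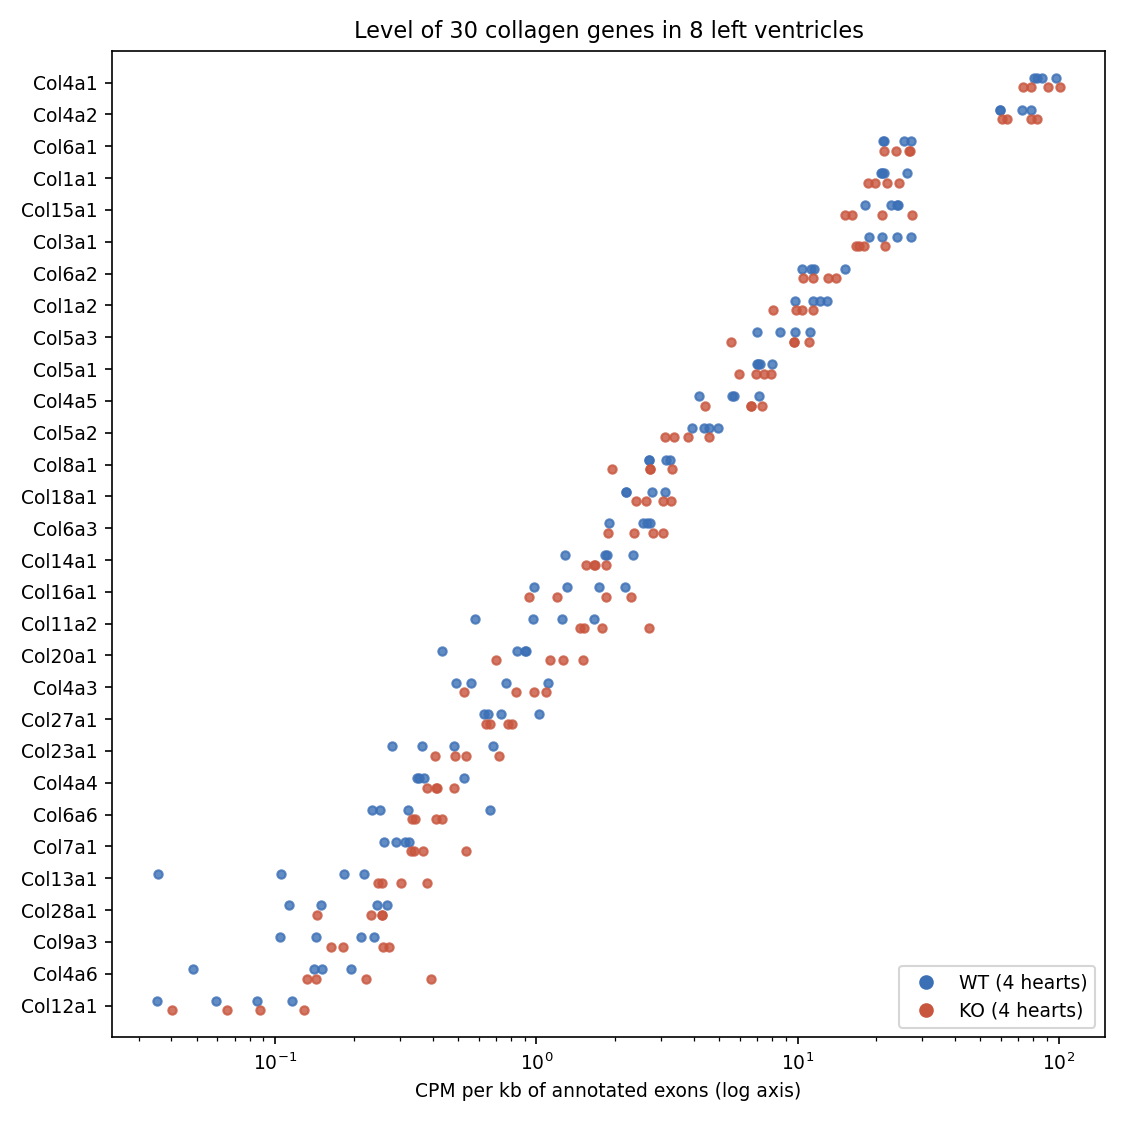
Level of each tested collagen gene in each heart (horizontal axis, CPM per kb of annotated exons, log axis; blue WT, red KO, 1 point per heart). Genes are ordered by their mean, from Col12a1 at 0.0771 to Col4a1 at 86.4, and the groups overlap in all genes but Col7a1 and Col13a1.

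The 14 collagen genes without enough counts were Col2a1, Col6a4, Col6a5, Col8a2, Col9a1, Col9a2, Col10a1, Col11a1, Col17a1, Col19a1, Col22a1, Col24a1, Col25a1 and Col26a1. Most of these are known from cartilage, skin or brain. Col9a1 and Col10a1 had 0 counts in all 8 libraries, which allows a level of up to 0.0296 CPM (3 counts of 101298202 in all; counting error only). The other 12 had at most 17 counts in any library, and all 14 together held at most 0.197% of the family's counts. Fitted without a count filter, none of the 14 passed in edgeR, and 1 had an unadjusted p under 0.05. This was Col24a1, named after its values were seen, with 1, 5, 6 and 1 counts in WT and 1, 0, 0 and 0 in KO (unadjusted p = 0.0108, adjusted p = 0.719 in edgeR). It was the lowest adjusted p of the 14, and scaled to library size every KO library of Col24a1 lay below every WT library, though WT replicates 1 and 4 and KO replicate 5 held 1 count each.

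The knockout was set against WT to see what its RNA changes in the ventricle are. As a check of the labels, Nbdy (chromosome X, 153723590 to 153741920) had a log2 fold change of -0.97 ± 0.11 (SE; adjusted p = 0.00602 in edgeR), from a mean level of 19.4 ± 0.470 CPM in WT hearts to 9.92 ± 0.412 CPM in KO hearts (SD, n = 4 each). Without KO replicate 6 its adjusted p was 0.0562. No collagen gene passed the adjusted p threshold of 0.05 in edgeR's quasi-likelihood test over the 13336 genes tested, where 0.0225% of all genes did; at a threshold of 0.10 the collagen count was also 0, against 0.03% of all genes. DESeq2 and limma-voom also called 0 of the 30. At an unadjusted p under 0.05 there were 3 of the 30 in edgeR, against 6.4% of all genes, 3 in DESeq2, against 6.01% of the same genes, and 3 in limma-voom, against 6.42%. Of the 3 in edgeR, Col11a2 and Col13a1 were higher in KO (3.5% of all genes were) and Col3a1 was lower (2.89% were). Col13a1 passed the count filter only through its KO libraries. Of the 30, 19 had a positive and 11 a negative log2 fold change, KO over WT, with a median of 0.05; over all tested genes 49.4% were positive and the median was -0.003. Removal of a trend with GC content and transcript length turned the split to 11 positive and 19 negative (median -0.09). Scaling by library totals gave 16 and 14.

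For the abundant members the main fit with TMM scaling limits how large a difference could be. The 95% interval of the KO over WT fold lay within 1.5-fold in either direction for 15 of the 18 genes with at least 10 CPM on average, and within 2-fold for 17 of them. Over all 30 tested genes the counts were 17 and 23. These limits depend on the processing. The trend removal moved Col1a2 from -0.22 to -0.37 and Col15a1 from -0.16 to -0.31, and brought Col11a2 from 0.75 to 0.54. The counts were not taken again after it.

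**Figure D3:**
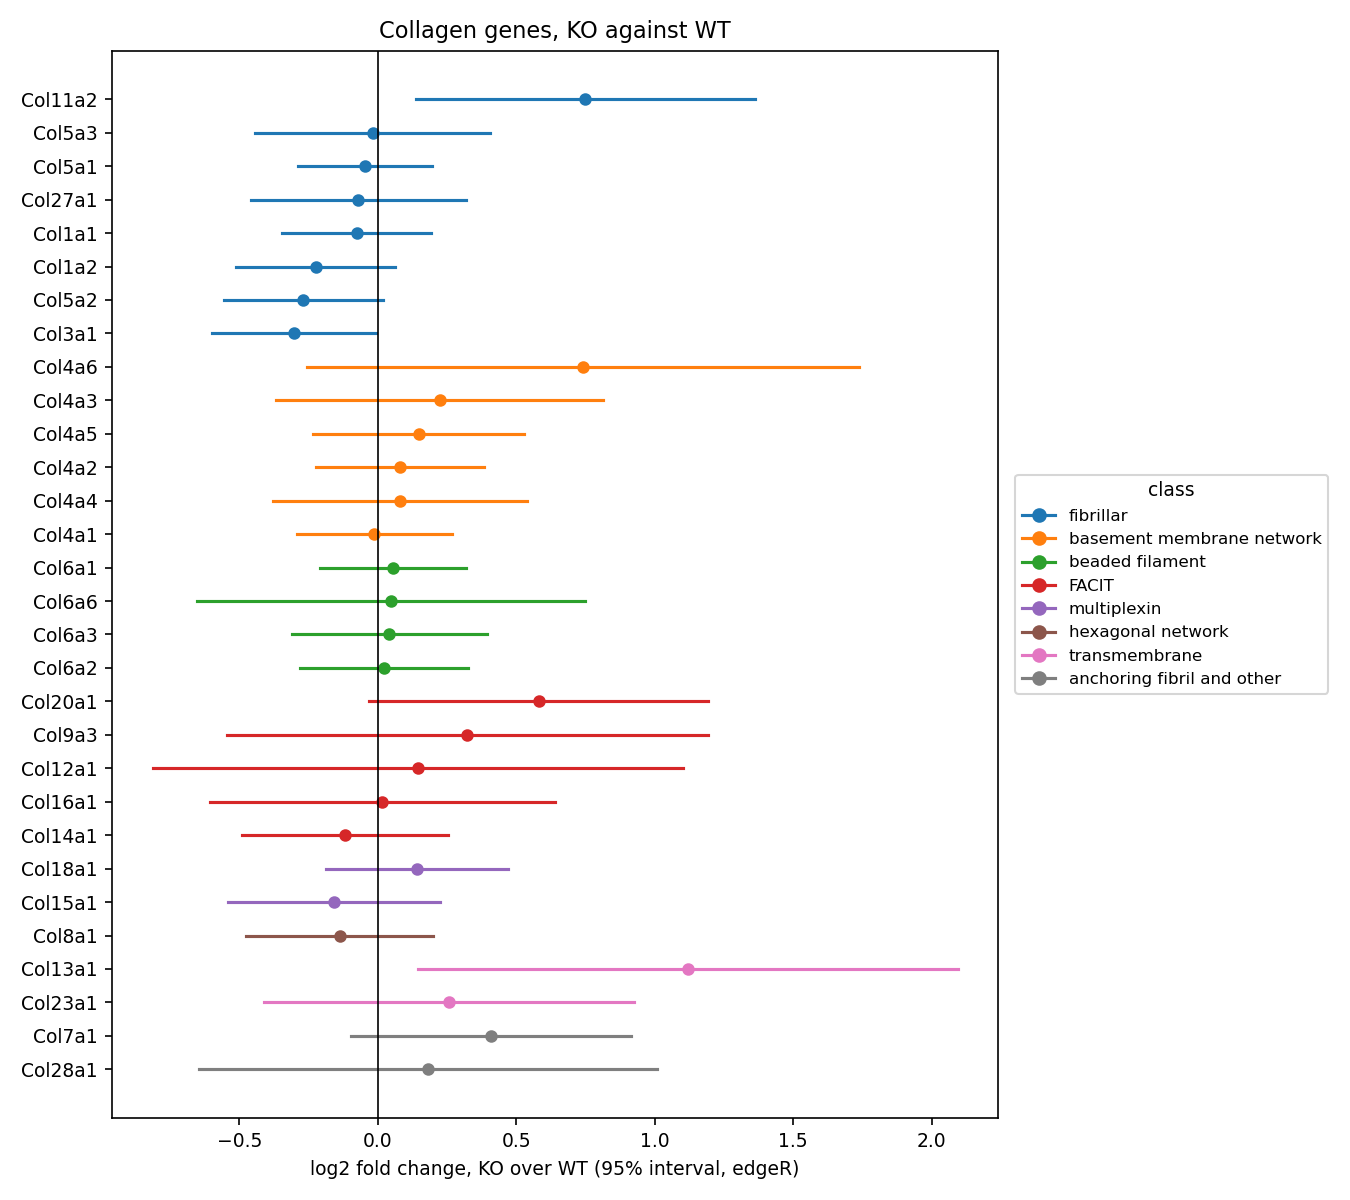
Log2 fold change, KO over WT (horizontal axis), of the 30 tested collagen genes with its 95% interval from edgeR, coloured by class. Of the 8 fibrillar genes 7 lie below 0, and the widest intervals belong to genes with few counts such as Col13a1 and Col4a6.

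Fibrillar genes form the load-bearing fibres. Of the 8 tested, 0 passed, 7 had negative values and 1 a positive value, with a median log2 fold change of -0.07. Leaving out WT replicate 4 or KO replicate 8 left 5 negative, and the trend removal gave a median of -0.26 with 7 negative.

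Col3a1 (ENSMUSG00000026043, chromosome 1, 45311538 to 45349706) encodes the type III chain, abundant in compliant tissues. It held 184, 237, 207 and 266 CPM in WT replicates 1 to 4 and 165, 177, 213 and 169 CPM in KO replicates 5 to 8. The groups overlapped, since KO replicate 7 lay above WT replicates 1 and 3, and WT replicate 4 was highest. Col3a1 had a log2 fold change of -0.30 ± 0.14 (SE; fold 0.811, 95% interval 0.660 to 0.996; unadjusted p = 0.0460, adjusted p = 0.772 in edgeR). Leaving out 1 library moved it between -0.39 and -0.21, and the trend removal set it at -0.41. Its neighbour Col5a2 (chromosome 1, 45374321 to 45503282, on the opposite strand), whose chain joins type V fibrils that start fibre growth, had 44.1, 47.7, 37.9 and 41.9 CPM in WT and 29.9, 36.4, 43.8 and 32.2 in KO. KO replicate 7 again lay within the WT range and the other KO libraries below it. For Col5a2 this gave a log2 fold change of -0.27 ± 0.13 (adjusted p of 0.777, edgeR).

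Col1a1 and Col1a2 encode the chains of type I collagen, the stiffest fibre. Col1a1 (chromosome 11, 94936224 to 94953042) held 138, 141, 137 and 172 CPM in WT and 129.9, 145, 160.2 and 122 in KO. WT replicate 4 stood above all other libraries, and without it the log2 fold change of -0.08 ± 0.12 (SE) was 0.0045. The trend removal set Col1a1 at -0.26. Col1a2 (chromosome 6, 4504814 to 4541544) held 121, 161, 143 and 152 CPM in WT and 99.9, 129.6, 142 and 123 in KO. All KO libraries lay under WT replicates 2, 3 and 4, but KO replicates 6, 7 and 8 lay above WT replicate 1. Its log2 fold change was -0.22 ± 0.13 (SE; fold 0.856, 95% interval 0.702 to 1.04; adjusted p = 0.796 in edgeR), and -0.37 after the trend removal.

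The other type V chains had smaller fold changes than Col5a2. The trend removal set Col5a1 at -0.24, Col5a3 at -0.22 and Col5a2 at -0.34. Col5a1 had 59.7, 60.7, 59.5 and 67.8 CPM in WT and 58.9, 67.4, 62.9 and 50.5 in KO, with a log2 fold change of -0.05 ± 0.11 (SE). Col5a3 had 76.1, 47.6, 58.5 and 66.3 CPM in WT and 75.5, 66.1, 65.9 and 37.7 in KO, with a log2 fold change of -0.02 ± 0.20. KO replicate 8 was the lowest library for both genes. Col27a1, a fibrillar gene known from cartilage, lay between 8.22 and 13.3 CPM in all libraries (log2 fold change -0.07 ± 0.18).

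Col11a2 was the fibrillar gene with a positive value. Its chain belongs to type XI collagen, known mainly from cartilage and the inner ear. Col11a2 (chromosome 17, 34039437 to 34066685) had 8.59, 6.64, 11.4 and 3.99 CPM in WT and 18.5, 10.1, 12.3 and 10.5 in KO. KO replicate 5 held the most and WT replicate 4 the least, and WT replicate 3 lay among the KO libraries. The log2 fold change was 0.75 ± 0.28 (SE; fold 1.68, 95% interval 1.10 to 2.57; unadjusted p = 0.0204, adjusted p = 0.734 in edgeR). It was 0.52 without KO replicate 5, 0.53 without WT replicate 4 and 0.54 after the trend removal. Col11a1, which encodes its partner chain, had at most 5 counts in any library.

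**Figure D4:**
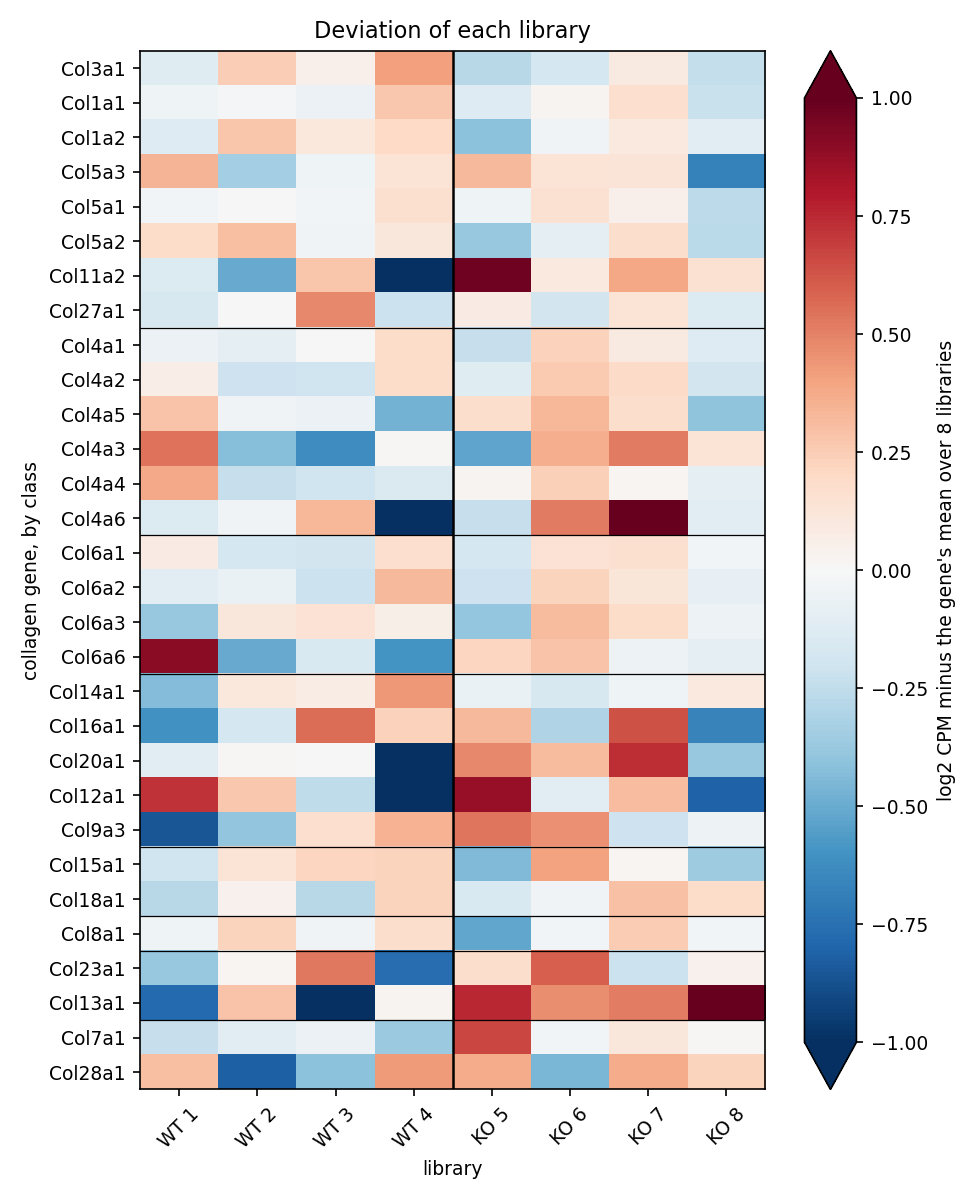
Log2 CPM of each tested collagen gene in each library, as the difference from that gene's mean over the 8 libraries (red higher, blue lower; colours end at 1 in either direction), with WT to the left of the vertical line and KO to the right. WT replicate 4 is the highest library for 7 genes and the lowest for 9.

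Basement membrane genes encode the 6 type IV chains. All 6 were tested, 0 passed, and 5 had positive values (median log2 fold change 0.11). After the trend removal 3 were positive and 3 negative. Col4a1 had 615, 603, 643 and 729 CPM in WT and 547, 753, 681 and 586 in KO, so KO libraries stood on both sides of the WT range. Its log2 fold change was -0.01 ± 0.13 (SE; fold 0.991, 95% interval 0.817 to 1.2), and -0.19 after the trend removal. Col4a2 had 478, 394, 396 and 518 CPM in WT and 419, 545, 521 and 402 in KO (log2 fold change 0.08 ± 0.14; -0.11 after the trend removal). For both genes KO replicates 6 and 7 were the higher KO libraries and replicates 5 and 8 the lower ones.

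The chains of the specialised type IV networks, known best from kidney and lung, were lower. Col4a5 (chromosome X, 141475385 to 141689234) had 47.8, 38.2, 37.6 and 28.2 CPM in WT and 44.4, 49.3, 44.4 and 29.7 in KO, with a log2 fold change of 0.15 ± 0.18 (SE). Both of its lowest libraries, WT replicate 4 and KO replicate 8, belong to different groups. Col4a6, the gene beside it, averaged 1.06 ± 0.491 CPM in WT hearts and 1.77 ± 0.964 CPM in KO hearts (SD, n = 4), a log2 fold change of 0.74 ± 0.46, with 40 counts in KO replicate 7 and 5 in WT replicate 4. Without KO replicate 7 the value was 0.32, and without WT replicate 3 it was 0.98. Col4a3 ran from 4.9 to 11 CPM and Col4a4 from 3.69 to 5.62 CPM over all libraries, with log2 fold changes of 0.22 ± 0.27 and 0.08 ± 0.21. Both had their highest level in WT replicate 1; without it, the value of Col4a3 was 0.49.

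Beaded filament genes of type VI had values near 0 in all 4 tested members, from 0.02 to 0.05 on the log2 scale, and 0 passed. All 4 turned negative after the trend removal, to between -0.14 and -0.04. Col6a1 (chromosome 10, 76708792 to 76726168) had 112, 93.6, 93.3 and 119 CPM in WT and 93.9, 117, 118 and 104 in KO. Col6a2, which lies near it on the same strand, had 93.4, 96.1, 86.7 and 126 CPM in WT and 87.1, 117, 109 and 95 in KO. WT replicate 4 was the highest library for both, and the groups overlapped throughout. The 95% intervals of the fold ran from 0.864 to 1.25 for Col6a1 and from 0.823 to 1.25 for Col6a2. Col6a3, which encodes the large chain of the trimer, had 22.6, 31.8, 32.5 and 30.6 CPM in WT and 22.5, 36.6, 33.4 and 28.4 in KO (log2 fold change 0.04 ± 0.16). Col6a6, an alternative to that chain, held 6.10 CPM in WT replicate 1 and 2.15 to 2.94 in the other WT libraries, against 3.06 to 3.97 in KO; without WT replicate 1 its log2 fold change of 0.05 ± 0.32 was 0.50.

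FACIT genes, which coat fibrils, had 0 of 5 tested members passing, with 4 positive and 1 negative. Col14a1, linked to the control of fibril diameter, had 8.99, 13.1, 12.8 and 16.4 CPM in WT and 11.6, 10.9, 11.8 and 13.0 in KO, so the WT libraries spread more widely around the KO ones (log2 fold change -0.12 ± 0.17). Col16a1 had 6.58, 8.85, 14.7 and 11.7 CPM in WT and 12.5, 8.09, 15.5 and 6.30 in KO (log2 fold change 0.02 ± 0.29), and its sign changed under 3 of the alternatives that keep all libraries. Col20a1 averaged 3.98 ± 1.18 CPM in WT hearts and 5.92 ± 1.75 CPM in KO hearts (SD, n = 4), a log2 fold change of 0.58 ± 0.28 with an adjusted p of 0.777 in edgeR. Without WT replicate 4, its lowest library, the value was 0.37, and without KO replicate 8 it was 0.75. A transcript annotated on the same strand overlaps Col20a1 and held 8 to 39 counts, so its level is uncertain. Col9a3 and Col12a1 lay between 0.401 and 1.96 CPM in all libraries, with log2 fold changes of 0.32 ± 0.40 and 0.14 ± 0.44.

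The multiplexins and the network-forming Col8a1 were abundant and showed no difference that passed. Col15a1 encodes a chain of the zone between basement membrane and interstitium in muscle and capillaries. It had 115, 145, 153 and 154 CPM in WT and 96.9, 174, 134 and 103 in KO, with KO libraries at both ends of the range (log2 fold change -0.16 ± 0.18). After the trend removal the value of Col15a1 was -0.31. Col18a1, the precursor of the fragment endostatin, had 15.5, 19.4, 15.5 and 21.9 CPM in WT and 16.9, 18.4, 23.1 and 21.4 in KO (log2 fold change 0.14 ± 0.15). The trend removal set it at -0.04. Col8a1, a short-chain collagen of vessels and the endocardium, had 21.1, 25.4, 21.2 and 24.6 CPM in WT and 15.2, 21.4, 26.0 and 21.4 in KO. KO replicate 5 was the lowest library for Col8a1, and without it the log2 fold change of -0.14 ± 0.16 was -0.0093.

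Transmembrane and anchoring collagens had few counts. Col13a1, a membrane collagen of cell adhesion sites and the neuromuscular junction, held 6, 11, 2 and 11 counts in WT and 20, 16, 15 and 20 in KO, or 0.626 ± 0.380 CPM on average in WT hearts and 1.37 ± 0.282 CPM in KO hearts (SD, n = 4). Every KO library lay above every WT library. The log2 fold change was 1.12 ± 0.45 (SE; fold 2.17, 95% interval 1.10 to 4.27; unadjusted p = 0.0278, adjusted p = 0.734 in edgeR). Col7a1, the anchoring fibril collagen of skin, also had groups that did not overlap, with 2.97, 3.23, 3.35 and 2.69 CPM in WT and 5.53, 3.41, 3.77 and 3.5 in KO. Its lowest KO library lay just above its highest WT library. The log2 fold change of Col7a1 was 0.41 ± 0.23 (adjusted p = 0.787 in edgeR), and 0.22 without KO replicate 5. These were 2 of 30 collagen genes with KO entirely above WT (6.67%), against 2.14% of all tested genes. Col13a1 passed the count filter only through its KO libraries, since WT replicates 1 and 3 held 6 and 2 counts. None of the 30 tested genes had KO entirely below WT, against 1.98% of all genes, and 4.12% of all genes did not overlap in either direction. Col24a1, with KO entirely below WT, was left out by the same filter, so no conclusion about the family is drawn from these shares. Col23a1 and Col28a1 had log2 fold changes of 0.26 ± 0.31 and 0.18 ± 0.38. Col4a3bp, the gene that is no collagen, stood at -0.06 ± 0.11.

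Libraries of both groups stood high and low in collagen level. Over the 30 genes, the median deviation from the gene's own mean was 0.148, 0.15 and 0.164 on the log2 scale in WT replicate 4, KO replicate 6 and KO replicate 7. It was -0.106 in WT replicate 1, -0.105 in KO replicate 8 and -0.056 in KO replicate 5. WT replicate 4 was the highest library for 7 of the 30 genes and the lowest for 9, whereas KO replicates 6 and 7 were highest for 6 and 5 genes and lowest for 0. The family's summed level was 2584 CPM in WT replicate 4 and 2205 to 2214 in WT replicates 1 to 3. It was 1994, 2532, 2472 and 1998 CPM in KO replicates 5 to 8.

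Chains of one collagen type are made in set proportions, and the ratios of their RNA levels were taken per kb of annotated exons in each heart. Type I collagen is a trimer with more of the chain from Col1a1 than from Col1a2. The ratio of Col1a1 to Col1a2 was 1.94 ± 0.252 in WT and 2.15 ± 0.243 in KO (SD, n = 4 per group). Per kb of the longest coding transcript it was 0.923 ± 0.120 and 1.02 ± 0.116, since the annotated exons of Col1a2 reach far beyond that transcript, so the value of the ratio depends on the length used. The ratio of Col4a1 to Col4a2 was 1.14 to 1.44 in WT and 1.16 to 1.29 in KO. Over all 8 hearts Col6a1 stood at 2.01 ± 0.152 times Col6a2 (SD) per kb of annotated exons and at 1.2 ± 0.0909 times per kb of coding transcript. Col6a3 stood at 0.206 ± 0.0321 times Col6a2, and at 0.136 ± 0.0213 times per kb of coding transcript. The ratio of Col1a1 to Col3a1 was 1.12, 0.886, 0.987 and 0.97 in WT and 1.18, 1.23, 1.12 and 1.07 in KO. WT replicate 1 lay within the KO range and the other WT libraries below it. Per kb of coding transcript this ratio was 0.556 to 0.772 over all hearts, so which of the genes is higher depends on the length used.

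**Figure D5:**
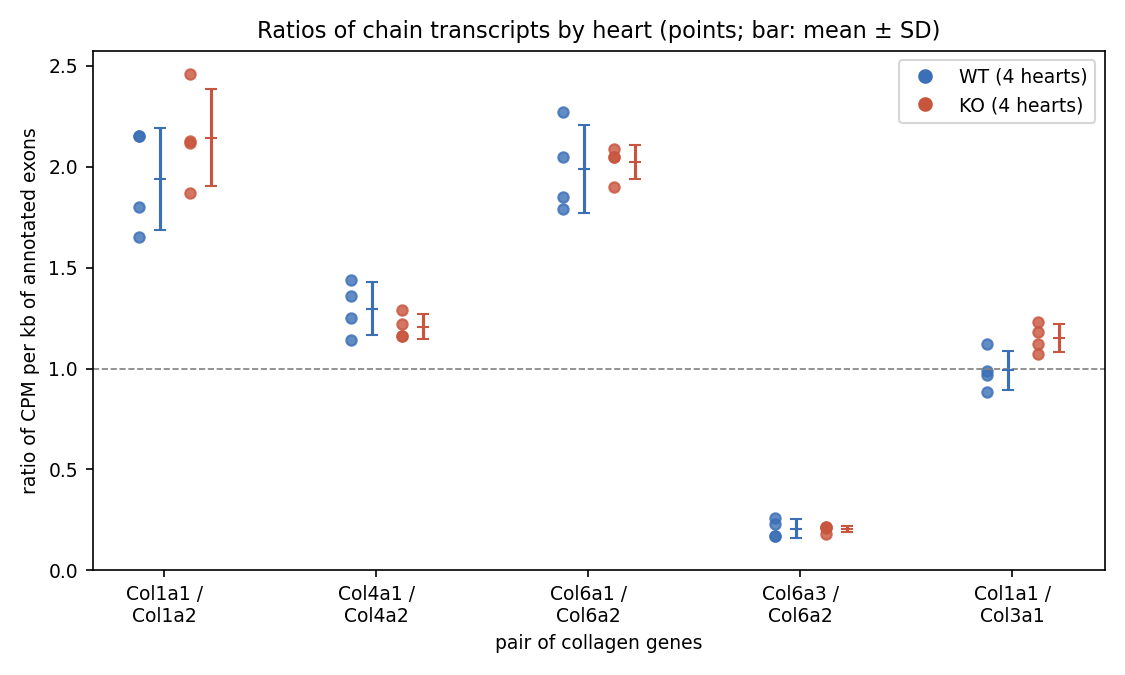
Ratio of the levels of paired collagen genes in each heart (vertical axis, from CPM per kb of annotated exons; blue WT, red KO; points are hearts, bars are the mean ± SD of 4 hearts). The ratio of Col6a3 to Col6a2 lies far under the others (0.206 over all hearts), and the WT and KO points overlap for all pairs.

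Genes that act on collagen were examined in 7 lists of 122 genes, of which 113 were tested. None passed in edgeR, DESeq2 or limma-voom, and 7 had an unadjusted p under 0.05 in edgeR (6.4% of all genes did). There were 56 positive and 57 negative values, and 38 and 75 after the trend removal. That removal moved the list medians given below to -0.057 for modification and folding, -0.019 for basement membrane partners and -0.094 for breakdown. It gave 0.023 for receptors, -0.065 for secretion, -0.053 for cross-linking and -0.071 for TGF-beta signalling. With 1 library left out, the median of each list but basement membrane partners crossed 0. Collagen chains are first modified and folded in the endoplasmic reticulum. Of 21 tested genes of this step, 11 were positive and 10 negative (median 0.02). The chaperone Hspa5 had 400.0 ± 76.3 CPM in WT hearts and 289 ± 22.0 CPM in KO hearts (SD, n = 4 each), a log2 fold change of -0.47 ± 0.14. The disulfide isomerase Pdia3 had 119 ± 10.7 and 95.6 ± 7.45 CPM (-0.32 ± 0.11). Both had an adjusted p of 0.711 in edgeR. For each of these, every KO library lay below every WT library, as in 1.98% of all genes. Over the 113 tested genes of all lists this held for 4, among them also Dcn and Lamb1. In 1 gene, Itga10, every KO library lay above every WT library, as in 2.14% of all genes. Crtap, a partner of the prolyl 3-hydroxylase, stood at 0.32 ± 0.14.

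Secretion and propeptide removal had 4 positive and 8 negative values among 12 tested genes (median -0.03). The coat protein gene Sec23a stood at -0.16 ± 0.12, Klhl12, which helps build large transport vesicles, at -0.16 ± 0.12, and Pcolce, an enhancer of the procollagen C-proteinase, at -0.11 ± 0.11. Cross-linking and fibril assembly had 9 positive and 9 negative values among 18 (median -0.003). The 3 smallest unadjusted p of this list belonged to proteoglycan genes, none of which passed, with Bgn at 0.29 ± 0.14, Ogn at -0.23 ± 0.11 and Dcn at -0.27 ± 0.13. Dcn encodes decorin, which binds fibrils of type I collagen, and averaged 590.3 ± 88.9 CPM in WT hearts against 489 ± 54.4 CPM in KO hearts (SD, n = 4), with an adjusted p of 0.777 in edgeR.

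Partners of type IV collagen in the basement membrane had 9 positive and 2 negative values among 11 (median 0.07). Agrn, which encodes agrin, averaged 166 ± 28.7 CPM in WT hearts and 219 ± 31.3 CPM in KO hearts (SD, n = 4), a log2 fold change of 0.40 ± 0.15 with an adjusted p of 0.734 in edgeR. Hspg2, which encodes perlecan, averaged 707 ± 111 and 862 ± 101 CPM (0.29 ± 0.14). The laminin gene Lamb1 lay the other way at -0.19 ± 0.10. Breakdown genes and their inhibitors had 8 positive and 8 negative values among 16 (median 0.025), with the cathepsin Ctsl at -0.19 ± 0.11 and the collagenases Mmp14 at -0.27 ± 0.16 and Mmp13 at -0.49 ± 0.40.

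Collagen receptors had 5 positive and 6 negative values among 11 (median -0.008). The receptor kinase Ddr1 averaged 12 ± 1.55 CPM in WT hearts and 16.2 ± 2.66 CPM in KO hearts (SD, n = 4), a log2 fold change of 0.44 ± 0.16 with an adjusted p of 0.726 in edgeR. The integrin genes Itga10 and Itga1 stood at 0.32 ± 0.17 and -0.12 ± 0.15. TGF-beta signalling drives collagen synthesis in scarring. The list of its genes, which include inhibitors, and of myofibroblast genes had 10 positive and 14 negative values among 24 (median -0.07). Smad7, an inhibitor of the pathway, stood at 0.28 ± 0.12 and Smad2 at -0.28 ± 0.15. The log2 fold change of Ccn2, -1.08 ± 0.62, rests on WT replicate 2, at 860.0 CPM where WT replicates 1, 3 and 4 lay between 88.7 and 141. Leaving it out turned the value to 0.37, and the median of this list to 0.04.

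Markers of the cells that make collagen, and of other cells, were read in the same libraries. No marker of any list passed in edgeR, and the lowest adjusted p among them was 0.711. In bulk tissue, fewer cells of a type and less RNA per cell cannot be told apart. Fibroblast markers had 3 positive and 10 negative values among 13 tested of 14 (median -0.06), and their summed level ran from 2121 to 2826 CPM in WT and from 2126 to 2516 in KO. Without WT replicate 2 this median turned to 0.011, and without WT replicate 3 it was -0.135. Endothelial markers, from cells that make type IV collagen, had 5 positive and 7 negative values among 12 (median -0.02), with sums of 2077 to 2315 CPM in WT and 1922 to 2383 in KO. Mural cell markers had 2 positive and 8 negative values among 10, with sums of 1285 to 1500.3 CPM in WT and 1021 to 1677 in KO. Markers of valve and cartilage-like cells had 1 positive and 4 negative values among 5 tested of 8, and summed to 31.6 to 46.1 CPM in WT and 28.4 to 36.4 in KO. Positive and negative values numbered 5 and 5 for macrophage markers, 0 and 3 for lymphocyte markers, 3 and 3 for Schwann cell markers, 2 and 1 for epicardial markers and 3 and 7 for cardiomyocyte markers. Atrial markers had 2 positive and 2 negative values and summed to 302 to 515 CPM in WT and 496 to 752 in KO, with Bmp10 at 0 in every library. Nppa, named after its values were seen, held 3381 to 9036 counts per library and so most of this sum, while Myl4, Myl7 and Sln held at most 116, 28 and 7. The 10 cardiomyocyte markers summed to 70992 to 84449.6 CPM in WT and 73388 to 86017 in KO. The part of cell composition in the collagen values was not tested.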

How the data were processed

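Stranded poly(A) libraries were made from 8 left ventricles, per the labels' protocols. The submitters' processing notes name STAR 2.7.1a and the builds GRCm38 and mm10; no source used here names the counting tool, its strand setting or the annotation. The deposited table holds raw counts per Ensembl gene, 1 column per heart, matched by name. No libraries agreed within sampling noise (chi-square over its degrees of freedom 11.5 to 60.0 for all pairs). The p-values set the difference between the genotypes against the spread between hearts of a group.

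GENCODE M21 gave symbols, positions and exon lengths for 36429 of 38293 identifiers. After filterByExpr (minimum count 10) and TMM scaling, edgeR 4.0.16 in R 4.3.3 fitted genotype alone to all 8 libraries by quasi-likelihood. Its two-sided p-values were adjusted by the Benjamini-Hochberg method over 13336 genes (threshold 0.05). SE is the log2 fold change divided by the root of F, and 95% intervals use the degrees of freedom of the fit. The procedure was tested on simulated data. Alternatives were DESeq2 1.42.0 and its size factors, library totals, limma-voom (limma 3.58.1), other filters, no mitochondrial genes, a GC content and length trend taken out (natural splines, from the longest coding transcript), an adjusted p of 0.10, transcript in place of exon length and each library left out. The members, lists and tests were chosen with earlier results of these data known. Every tested collagen gene was named, with values in every library from 10 CPM on average upwards, and of each pathway list the passing genes and the 3 smallest p.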

Additional observations from a re-analysis of the deposited data

Results flagged for a closer look

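In groups of 4 hearts, a library was marked when its gap to the next one was too large a share of the group's range (Dixon's 95% critical value); chance marks about 1 in 20 groups, and 12 were marked among 170 groups examined. WT replicate 4 was marked for the family's summed level (2584 CPM, with WT replicates 1 to 3 at 2205 to 2214), for Col1a1 (172 CPM against 137 to 141), for Col5a1 (67.8 CPM against 59.5 to 60.7) and, as the low library, for Col20a1 (2.23 CPM against 4.34 to 4.70). WT replicate 1 was marked for Col4a4 (5.62 CPM against 3.69 to 3.92), and KO replicate 5 for Col7a1 (5.53 CPM against 3.41 to 3.77).

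WT replicate 2 was marked for Ccn2 (860.0 CPM against 88.7 to 141), for Dcn (723 CPM against 535 to 552) and for the summed list of collagen breakdown genes and their inhibitors (1155 CPM against 784 to 803). KO replicate 8 was marked as low for Mmp14 (13.0 CPM against 19.7 to 20.3) and Itga10 (5.34 CPM against 5.96 to 6.02), and KO replicate 7 as low for Smad2 (9.26 CPM against 11.1 to 11.4).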

How the results depend on the processing

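No collagen gene and no pathway gene passed under any of the 17 alternatives, and the lowest adjusted p of a collagen gene over them was 0.335 (Col3a1). Of the 30 tested collagen genes, 15 kept their sign under each alternative that gave them a value, of which Col9a3 has none under the filter of 1 CPM in 4 libraries. The family's median log2 fold change of 0.05 was -0.087 once a trend with GC content and length was taken out; with 1 library left out it ran from 0.0036 to 0.117. That removal turned the log2 fold changes of Col6a1 to -0.064, Col18a1 to -0.043, Col6a2 to -0.109, Col4a2 to -0.11, Col16a1 to -0.181, Col6a6 to -0.04, Col6a3 to -0.14 and Col4a4 to -0.02. Library totals, which moved the median of all genes to -0.051, turned Col6a2 to -0.021, Col16a1 to -0.049 and Col6a3 to -0.0088; limma-voom turned Col16a1 to -0.00041. The cause was not tested.

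With 1 library left out, signs changed in Col1a1 (-0.151 to 0.0045), Col4a1 (-0.102 to 0.057), Col5a1 (-0.112 to 0.026), Col5a3 (-0.134 to 0.154), Col6a2 (-0.053 to 0.147), Col6a3 (-0.069 to 0.159), Col6a6 (-0.124 to 0.503), Col12a1 (-0.181 to 0.458), Col14a1 (-0.257 to 0.02), Col16a1 (-0.222 to 0.221), Col27a1 (-0.157 to 0.105) and Ccn2 (-1.384 to 0.37). Nbdy ran from -0.995 to -0.953 and missed the threshold without KO replicate 6 (log2 fold change -0.956, adjusted p = 0.0562). Per kb of coding transcript in place of all exons, the mean chain ratios were 0.972 in place of 2.04 for Col1a1 to Col1a2, 1.38 in place of 1.25 for Col4a1 to Col4a2, 1.2 in place of 2.01 for Col6a1 to Col6a2, 0.136 in place of 0.206 for Col6a3 to Col6a2 and 0.672 in place of 1.07 for Col1a1 to Col3a1. No paired analysis was possible because the groups share no replicate number.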
